A study of Mus musculus with 12 samples.

Results

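The genes of the developing mouse lung whose expression peaked at E18.5, just before birth, were selected on their measured levels. A gene was a member when its lowest E18.5 library lay above the highest library of each other time-point, when its E18.5 mean was at least 1.5 times the mean of each other time-point, and when that mean was 2 CPM or more (CPM, the count of a gene scaled by the mapped reads of its library). This gave 57 genes of the 16152 genes in the table of counts. RNA of whole lungs of wild-type C57BL/6 mice was sequenced at 2 embryonic days (E15.5 and E18.5) and 2 postnatal days (P5 and P8), with 3 replicates at each time-point and 12 libraries in all. No treatment was given and both sexes were sampled. The 3 replicates of each stage were littermates, so litter and time-point cannot be told apart and the p-values below measure only the spread between littermates. Whole lung holds every cell type of the organ, and fewer cells of a type and less RNA per cell cannot be told apart in it.

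At E18.5 the mouse lung is in its saccular stage and still filled with liquid, and the fetus lives at an oxygen tension lower than that of air. Cells sense oxygen through prolyl hydroxylases of the Egln family, which mark the alpha subunits of the hypoxia-inducible factors (HIF) for destruction when oxygen is present. When oxygen is low the factors bind short motifs such as ACGTG in target genes, and several of these targets encode parts of the same circuit. Fetal lung epithelium also stores glycogen, which is used up as surfactant is made around birth, and multiciliated cells are being added to the airways over the same days.

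Between 41337443 and 53901957 reads were counted on genes per library. The lung marker *Nkx2-1*, a transcription factor of lung epithelium, lay between 136 and 237 CPM in all 12 libraries. The lowest count of a member in an E18.5 library was 71, a level that the limit of 2 CPM largely sets. Without the ratio and the 2 CPM limit, 790 genes (4.89% of the table) had every E18.5 library above every other library. The same rule centred on another time-point gave 150 genes at E15.5, 44 at P5 and 707 at P8.

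The peak was modest for most of the 57 genes. The ratio of the E18.5 mean to the highest other mean ran from 1.501 to 4.48 with a median of 1.63, and 10 members reached a ratio of 2 or more. The members were chosen by these values, which are given as a description. The next highest time-point was E15.5 for 48 members, P8 for 5 and P5 for 4. At E15.5 the median member stood at 59.8% of its E18.5 mean, at P5 at 39.3% and at P8 at 39.5%. The fall after E18.5 was far more variable than the approach to it: the E15.5 level ran from 22.3% to 66.6% of the peak and the P5 level from 0.627% to 64.8%. Changes over all genes tested were also larger after E18.5, with a median absolute log2 fold change of 0.55 to P5 beside 0.19 from E15.5. At P5, 8 members were under 10% of their peak, and 18 were still at 50% of it or more. Just inside the ratio lay *Ago2* (1.501) and *Brwd3* (1.504), and just outside it lay *Ccl11* (1.499) and *Fam199x* (1.494). Just inside the limit of 2 CPM lay *Kcnj10* at 2.16 CPM and *Egr3* at 2.19 CPM, and just outside it *Alms1-ps2* at 1.81 CPM and *Gm13421* at 1.47 CPM.

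**Figure D1:**
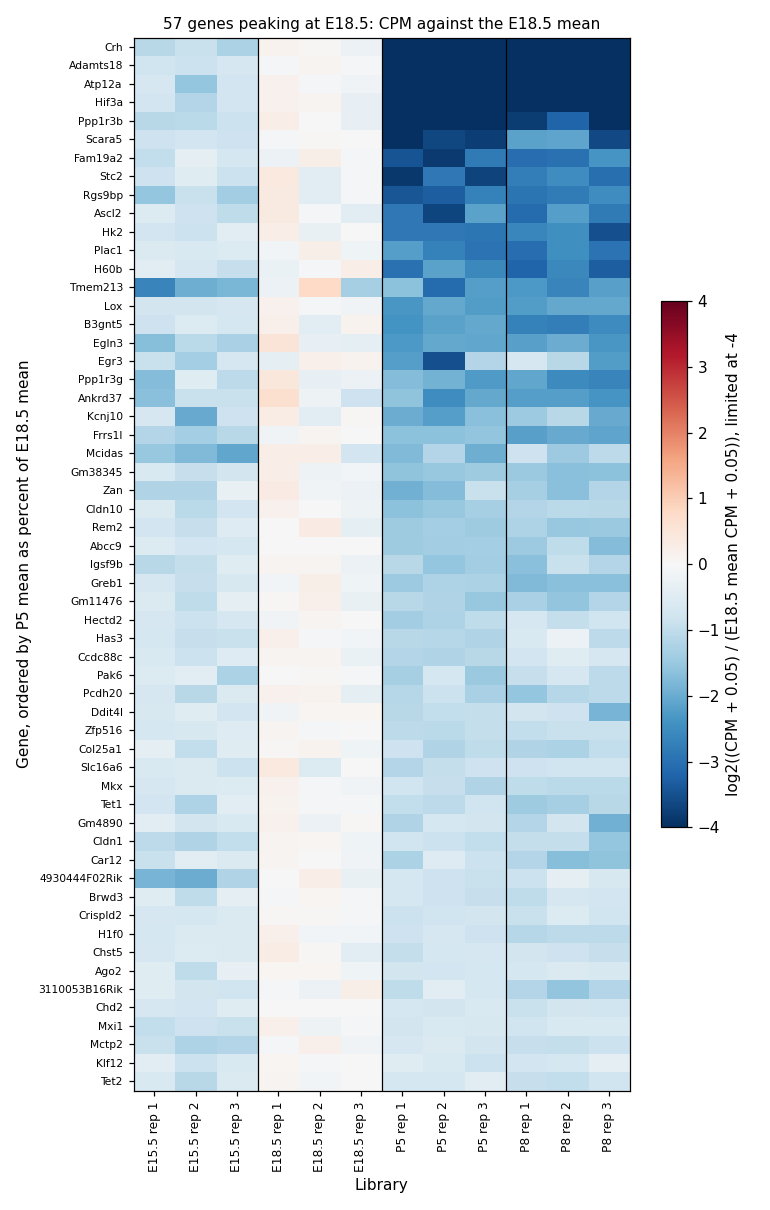
Heat map of the 57 genes (rows, ordered by the P5 mean as a percent of the E18.5 mean) in the 12 libraries (columns). The colour is log2 of the CPM relative to the E18.5 mean of the gene, with 0.05 CPM added to both and limited at -4. The E18.5 columns are near 0, the E15.5 columns are mostly pale blue, and the P5 and P8 columns run from dark blue for *Crh*, *Adamts18*, *Atp12a* and *Hif3a* at the top to pale blue at the bottom.

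Expressed per kilobase of exon at E18.5, the highest members were *H1f0* at 352 CPM per kb and *Lox* at 141 CPM per kb. *Ppp1r3b* followed at 35.1, *Egln3* at 28.1 and *Hif3a* at 25.3 CPM per kb. Of the 57 genes, 52 are annotated as protein-coding, and they lay on 19 chromosomes. Exons of 18 members overlap exons of a gene on the other strand, and 5 overlap a gene on the same strand. The strand setting of the counting is not given in the sources used here. Whether reads of the shared stretches were counted for these genes, for their partners or for neither therefore cannot be told.

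Of the gene lists searched, that of hypoxia-inducible genes held the most members. It contained 23 measured genes, of which 5 (21.7%) peaked at E18.5 by the rule, beside 0.353% of the whole table. The lists were chosen with earlier results of these data known, so these shares are a description and not a test of enrichment. *Hif3a* (chr7:17031507-17062427, minus strand, GRCm38) encodes a HIF alpha subunit that can restrain the other factors. It was at 98.9, 75.3 and 101 CPM in the 3 E15.5 libraries, 193, 181 and 136 at E18.5, 8.86, 8.07 and 9.78 at P5 and 4.97, 5.57 and 5.39 at P8. The E18.5 libraries stood above all others, and after birth the gene kept 5.24% of its peak at P5 and 3.13% at P8.

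*Egln3* (chr12:54178981-54203860, minus strand, GRCm38) encodes a prolyl hydroxylase that is itself a HIF target. Its levels were 22.98, 35.1 and 30.3 CPM at E15.5, then 106, 59.8 and 58.7 at E18.5, 15.3, 18.1 and 17.9 at P5 and 16.7, 18.7 and 14.8 at P8. E18.5 replicate 1 lay far above replicates 2 and 3, and without it the ratio of E18.5 to E15.5 was 2.01 in place of 2.54. *Ankrd37*, an ankyrin-repeat protein induced by hypoxia, was at 2.40, 4.19 and 4.15 CPM in the E15.5 libraries and 12.3, 6.70 and 4.32 CPM at E18.5. At P5 it was at 2.52, 1.34 and 1.82 CPM and at P8 at 1.66, 1.65 and 1.46 CPM. Its lowest E18.5 library was barely above its highest E15.5 library, and without E18.5 replicate 1 the ratio was 1.54 in place of 2.17. Exons of *Ankrd37* overlap *Lrp2bp* and *Ufsp2* on the other strand.

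*Mxi1*, a MAX partner that opposes MYC, was higher in every P5 library than in any E15.5 library. It was at 27.99, 30.98 and 29.6 CPM in the E15.5 libraries, 63.6, 48.05 and 52.9 at E18.5, 32.7, 36.1 and 35.04 at P5 and 31.3, 36.3 and 35.7 at P8, so that P5 and not E15.5 was its next highest time-point. *Car12*, a membrane carbonic anhydrase, was the lowest of the 5, at 3.35, 3.08 and 2.77 CPM at E18.5 against 1.65, 2.22 and 2.05 CPM at E15.5. Its P5 libraries, at 1.24, 2.15 and 1.66 CPM, overlapped those of E15.5.

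**Figure D2:**
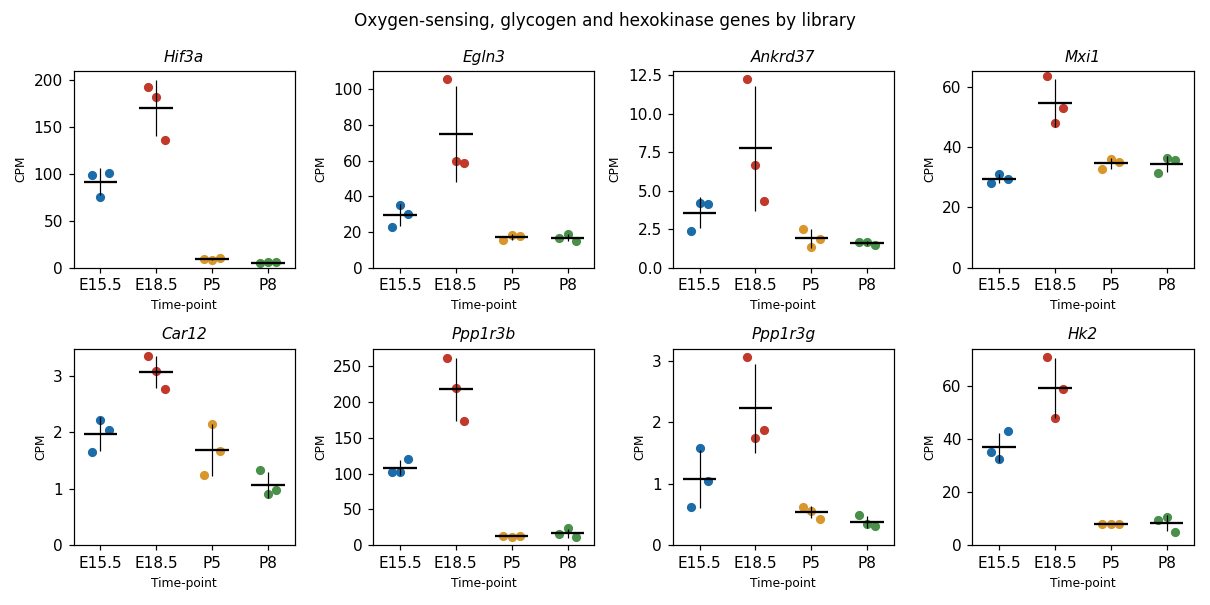
CPM (vertical axes, from 0) of 5 hypoxia-inducible members, the glycogen-targeting members *Ppp1r3b* and *Ppp1r3g*, and the hexokinase gene *Hk2* at the 4 time-points. Points are libraries, horizontal bars are means and vertical bars are SD (n = 3). All 3 E18.5 points lie above the other 9 in each panel, with E18.5 replicate 1 the highest.

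Promoters of members were searched for ACGTG, a motif bound by HIF. The windows printed below were chosen because they hold a match. Those of *Egln3*, *Ankrd37* and *Mxi1* belong to the hypoxia-inducible list, and those of *Hk2* and *Ppp1r3g* lie outside it. RefSeq promoter windows (250 bases before to 50 after an annotated start, GRCm38.p6) were found for 38 of the 57 members, in 46 windows. The motif ACGTG was searched on both strands and reads CACGT where it lies on the other strand. Below, the matches are in capitals and each window runs 5′ to 3′ along its gene.
Egln3, chr12:54203825-54204124, minus strand: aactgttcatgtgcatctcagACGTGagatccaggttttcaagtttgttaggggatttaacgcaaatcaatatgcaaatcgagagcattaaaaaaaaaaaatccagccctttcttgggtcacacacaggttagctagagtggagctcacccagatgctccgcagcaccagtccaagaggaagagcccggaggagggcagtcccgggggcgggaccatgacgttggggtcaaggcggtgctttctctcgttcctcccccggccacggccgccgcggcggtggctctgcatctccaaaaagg
Ankrd37, chr8:45999801-46000100, minus strand: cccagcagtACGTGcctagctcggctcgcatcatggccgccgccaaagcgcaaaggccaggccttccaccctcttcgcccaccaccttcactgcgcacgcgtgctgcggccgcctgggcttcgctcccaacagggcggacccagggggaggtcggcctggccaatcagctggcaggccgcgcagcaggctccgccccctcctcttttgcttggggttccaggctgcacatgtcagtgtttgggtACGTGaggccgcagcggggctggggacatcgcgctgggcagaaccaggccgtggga
Mxi1, chr19:53329163-53329462, plus strand: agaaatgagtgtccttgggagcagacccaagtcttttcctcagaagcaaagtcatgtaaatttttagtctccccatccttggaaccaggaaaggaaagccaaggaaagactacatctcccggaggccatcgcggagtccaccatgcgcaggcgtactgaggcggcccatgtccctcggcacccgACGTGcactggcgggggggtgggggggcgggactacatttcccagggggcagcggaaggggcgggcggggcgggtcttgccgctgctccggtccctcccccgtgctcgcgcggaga
Hk2, chr6:82774405-82774704, minus strand: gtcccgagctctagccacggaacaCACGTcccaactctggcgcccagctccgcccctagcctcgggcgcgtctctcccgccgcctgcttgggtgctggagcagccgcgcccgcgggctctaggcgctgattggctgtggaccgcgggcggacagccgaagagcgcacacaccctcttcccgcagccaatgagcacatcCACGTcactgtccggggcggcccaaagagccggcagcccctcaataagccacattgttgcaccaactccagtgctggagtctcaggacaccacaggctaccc
Ppp1r3g, chr13:35967656-35967955, plus strand: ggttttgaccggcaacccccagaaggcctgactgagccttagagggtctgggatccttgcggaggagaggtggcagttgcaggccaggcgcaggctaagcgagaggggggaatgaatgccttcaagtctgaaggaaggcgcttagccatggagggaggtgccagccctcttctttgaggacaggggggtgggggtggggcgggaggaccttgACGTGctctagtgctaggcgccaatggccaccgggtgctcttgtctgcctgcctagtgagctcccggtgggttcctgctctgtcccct
The match in *Egln3* begins 229 bases before the start, those in *Ankrd37* 241 and 6 bases before, that in this window of *Mxi1* 66 before, those in *Hk2* 226 and 52 before, and that in *Ppp1r3g* 38 before. Another window of *Mxi1*, not printed, held a match 25 bases before its start, and a further one held none. The windows of *Hif3a* and *Car12*, also not printed, did not hold ACGTG. Other forms of the HIF motif were not searched, here or in the shares below. Over the members, 14 of 46 windows (30.4%) held ACGTG, beside 24.3% of the 15155 windows of all genes in the table. In the members of the hypoxia-inducible list it was 4 of 7 windows, and in all 22 genes of that list with a window it was 18 of 33. Outside the list, 10 of 39 windows of members (25.6%) held the motif, which is close to the share of all windows.

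The other 18 genes of the hypoxia-inducible list showed how far the pattern reached. Every E18.5 library was above every other library in 7 of them, namely *Slc2a1*, *Kdm3a*, *Ak4*, *P4ha1*, *Egln1*, *Pfkfb3* and *Ero1l*, beside the 4.89% of all genes given above. Their E18.5 means fell short of the ratio of 1.5. *Slc2a1*, the main glucose transporter of fetal cells, was closest, at 65.8, 91.4 and 79.3 CPM at E15.5, then 146, 95.00 and 112 at E18.5 and 11.6, 14.8 and 13.3 at P5. *Ak4*, a mitochondrial adenylate kinase, measured 53.6 ± 9.08 CPM (SD, n = 3) in the E15.5 libraries, 70.9 ± 4.37 in those of E18.5 and 11.4 ± 0.335 in those of P5. *Ndrg1*, a stress-response gene, measured 35.8, 24.6 and 22.05 CPM in the E18.5 libraries, against a mean of 10.5 ± 0.745 CPM at E15.5, and was not a member because its highest P8 library, at 23.5 CPM, lay above the lowest of E18.5.

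Not all genes of the list followed this course. *Vegfa*, the growth factor for blood vessels, had a mean of 113 ± 19.6 CPM at E18.5 that was below the 353 ± 65.5 CPM of P8, and *Pfkfb4* and *Adm* were also highest after birth. The glycolytic genes *Ldha* and *Pgk1* and the genes *Car9* and *P4ha2* were highest at E15.5. The rule did not use the order of E15.5 and P5, although it limited both levels in the members of the list. From E15.5 to P5, 7 of the 23 genes passed both cutoffs downward and 2 upward, beside 12.2% and 19.4% of all genes tested. The cutoffs were edgeR FDR under 0.05 and absolute log2 fold change above 1. The median log2 fold change of the list was -0.69 beside -0.02 over all genes tested.

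**Figure D3:**
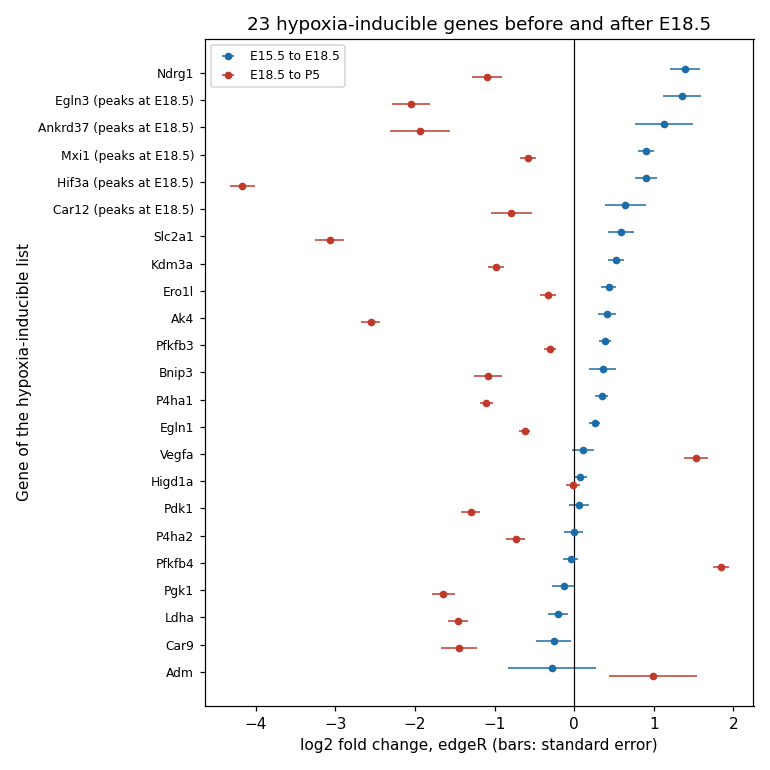
Log2 fold change with its standard error (horizontal axis, edgeR) of the 23 genes of the hypoxia-inducible list (rows) from E15.5 to E18.5 (blue) and from E18.5 to P5 (red). The 5 members are marked, and for them both intervals belong to the rule that chose them. *Ndrg1* and 5 members have the highest blue points, while *Vegfa*, *Pfkfb4* and *Adm* have red points above 0.

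Of the genes that handle glycogen, 2 of 17 measured were members, beside 0.353% of the whole table. Both encode subunits that bring protein phosphatase 1 to glycogen and so favour its synthesis. *Ppp1r3b* (chr8:35375739-35388139, plus strand, GRCm38) was at 102, 103 and 121 CPM in the E15.5 libraries and 261, 219.9 and 173 at E18.5. It was at 13.5, 12.3 and 13.6 CPM at P5 and 15.7, 23.5 and 11.1 at P8, which leaves 6.01% of the peak at P5. *Ppp1r3g* was much lower, at 3.06, 1.74 and 1.87 CPM at E18.5, and its highest E15.5 library, at 1.57 CPM, lay just under these. Another gene of this kind, *Ppp1r3c*, had every E18.5 library above the rest at 209.8 ± 37.1 CPM, but its E15.5 mean of 146 CPM put it under the ratio. The summed CPM of the 17 genes was 1489 to 1713 in the E18.5 libraries, 1333 to 1418 at E15.5, 1346 to 1412 at P5 and 1207 to 1336 at P8. From E15.5 to P5, 1 of the 17 genes passed both cutoffs downward and 1 upward, and on the FDR alone 7 were lower and 3 higher. These counts stand beside the same 12.2% and 19.4% of all genes, and beside 74.8% on the FDR alone.

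*Hk2*, the hexokinase that takes glucose into glycolysis, was the only member among 19 measured glycolysis genes. Its levels were 35.1, 32.8 and 43.2 CPM in the E15.5 libraries, 70.98, 48.2 and 59.04 at E18.5, 8.16, 8.07 and 7.94 at P5 and 9.67, 10.8 and 5.13 at P8. The highest mean fell at E15.5 in 34.5% of all genes in the table, at P8 in 26.4%, at E18.5 in 19.8% and at P5 in 19.3%. In the glycolysis list 13 of the 19 genes were highest at E15.5 and only *Hk2* and the lactate exporter *Slc16a3* were highest at E18.5. From E15.5 to P5, 11 of the 19 genes passed both cutoffs downward and 0 upward, beside 12.2% and 19.4% of all genes tested. On the FDR alone 15 were lower and 2 higher, beside 74.8% of all genes in either direction. *Slc16a6*, another member of the monocarboxylate transporter family, was a member at 14.8, 7.73 and 11.6 CPM at E18.5, where its replicate 2 lay only just above its highest E15.5 library (7.67 CPM).

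The other members are described below by what they are known to do, in an order chosen after their values were seen and without a test of any theme. *Crh*, which encodes corticotropin-releasing hormone, was at 7.57, 8.77 and 6.77 CPM in the E15.5 libraries and 18.1, 17.1 and 14.05 at E18.5. After birth it was at 0.0321, 0.227 and 0.0493 CPM at P5 and 0.0410, 0.0327 and 0.0329 at P8, which is 16 counts over the 3 P5 libraries and 6 over the 3 P8 libraries, beside 2542 over the 3 E18.5 libraries. The hormone *Stc2*, a stanniocalcin that blocks the protease releasing IGF, was at 8.47, 10.7 and 8.34 CPM at E15.5, then 19.8, 11.2 and 14.4 at E18.5 and 0.996, 2.06 and 1.12 at P5. Its ratio was 1.65 with all libraries and 1.40 without E18.5 replicate 1. *Fam19a2*, a small secreted protein of the nervous system, was at 2.05, 2.85 and 2.36 CPM at E18.5 and at no more than 0.43 CPM in any postnatal library.

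*H1f0* (chr15:79028450-79030504, plus strand, GRCm38), a linker histone of slowly dividing cells, was the most abundant member. It was at 449, 489 and 483 CPM in the E15.5 libraries, 832, 669 and 671 at E18.5, 406, 449.7 and 411 at P5 and 328, 349 and 349.8 at P8. *Ago2*, the slicing Argonaute of small RNA silencing, was at 123, 84.8 and 138 CPM in the E15.5 libraries and 182, 182 and 155 at E18.5, with 103, 101 and 107 at P5. *Chd2*, a chromatin remodeller, was the steadiest of these at its peak, with 109, 108 and 106 CPM at E18.5 against 67.7, 63.3 and 76.4 at E15.5.

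The methylcytosine dioxygenases *Tet1* and *Tet2* were both members. *Tet1* was at 30.4, 21.9 and 37.8 CPM at E15.5, then 56.3, 48.97 and 49.6 at E18.5 and 19.4, 20.6 and 24.1 at P8. *Tet2* was at 31.1, 22.1 and 32.1 CPM in the E15.5 libraries, 51.7, 43.99 and 46.8 at E18.5 and 25.1, 24.2 and 27.1 at P8. *Ago2*, *Chd2*, *Tet1*, *Tet2* and the bromodomain gene *Brwd3* had their lowest E15.5 value in replicate 2. Without that library 48 of the 57 members still met the rule, *Tet1* and *Tet2* among them, while *Ago2*, *Brwd3* and *Chd2* did not. The list of RNA-binding and splicing genes held 0 members among 29 measured, beside 0.353% of the whole table.

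Among transcription regulators, *Mcidas* stood apart because it acts at the start of multiciliated cell formation. It was at 1.99, 1.63 and 1.32 CPM at E15.5, then 6.94, 6.81 and 3.37 at E18.5, 1.64, 2.52 and 1.43 at P5 and 3.18, 2.07 and 2.71 at P8. The lowest of its E18.5 libraries, replicate 3, was close to the highest P8 library. *Mcidas* was the single member among 28 ciliated-cell genes, 20 of which were highest at P8, beside the 26.4% of all genes. The summed level of that list was 169 to 252 CPM at E18.5 and 509 to 604 CPM at P8. The highest mean fell at E18.5 in 8 of the 28 genes (28.6%), beside 19.8% of all genes. Among these 8 were *Mcidas*, *Ccno*, *Deup1*, *Cdc20b* and *Foxn4*. Only *Mcidas* (3.57% of the list) had every E18.5 library above all others, beside 4.89% of all genes. *Deup1*, which helps to multiply centrioles, measured 2.97, 1.34 and 1.63 CPM in the E15.5 libraries. Its E18.5 libraries reached 10.5, 13.6 and 5.35 CPM and its P5 libraries 4.30, 5.39 and 5.21 CPM. The highest P5 library of *Deup1* thus lay above its lowest E18.5 library.

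The zinc-finger gene *Zfp516* was at 62.1, 63.9 and 70.7 CPM at E15.5, then 108, 95.6 and 99.2 at E18.5 and 48.5, 47.8 and 51.9 at P5. *Mkx*, a homeobox regulator of tendon, had a mean of 11.9 ± 1.36 CPM at its peak and *Klf12*, a repressor of the Krüppel-like family, at 10.02 ± 0.476 CPM (SD, n = 3). *Ascl2* and *Egr3* were low, at 3.82, 2.89 and 2.22 CPM and 1.64, 2.51 and 2.42 CPM at E18.5. *Egr3* was the only member of 19 measured immediate-early and heat-shock genes, 12 of which were highest at P8, beside 26.4% of all genes.

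Members with a role in the extracellular matrix included *Lox*, *Col25a1*, *Adamts18*, *Crispld2* and *Has3*. *Lox*, the enzyme that cross-links elastin and collagen, was at 408, 402 and 426 CPM in the E15.5 libraries, 763, 653 and 606 at E18.5, 136, 162 and 143 at P5 and 144, 162 and 162 at P8. It was the only member among 21 elastic-fibre genes, and 12 of these were highest at P8, beside 26.4% of all genes. *Adamts18* (chr8:113697126-113848738, minus strand, GRCm38), a secreted metalloprotease, was at 20.9, 20.1 and 22.8 CPM in the E15.5 libraries and 35.1, 38.97 and 34.8 at E18.5, and at 0.578, 0.640 and 0.805 CPM at P5 and 1.11, 1.26 and 0.789 at P8. Its prenatal and postnatal libraries were separated by more than an order of magnitude.

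*Col25a1*, a membrane-bound collagen chain, reached 78.2, 83.5 and 67.7 CPM at E18.5, from 57.7, 38.9 and 54.4 CPM at E15.5, and was the single member among 34 collagen genes. *Crispld2*, a secreted protein of the lung mesenchyme known to respond to glucocorticoid, was at 8.41, 8.24 and 9.07 CPM at E15.5, then 14.02, 13.9 and 12.7 at E18.5 and 7.47, 7.74 and 8.15 at P5. It was the only member among 22 genes of the glucocorticoid list, of which 9 were highest at P5 and 7 at P8, beside 19.3% and 26.4% of all genes. *Has3*, a hyaluronan synthase, was at 5.80 ± 0.716 CPM at E18.5 and its highest P8 library reached 4.93 CPM.

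The tight-junction gene *Cldn1* was at 9.64, 8.77 and 10.2 CPM in the E15.5 libraries, 21.7, 21.1 and 17.7 at E18.5, 11.7, 11.1 and 10.1 at P5 and 10.3, 10.3 and 6.85 at P8. *Cldn10*, a claudin of the club-cell list, was at 21.3, 15.1 and 18.9 CPM at E15.5, then 36.2, 31.9 and 27.6 at E18.5 and 14.1, 15.1 and 14.8 at P8. Of the 18 genes of that list 14 were highest at P8, beside 26.4% of all genes. *Cldn10* was 1 of 2 that were highest at E18.5, beside 19.8% of all genes. *Abcc9*, the regulatory subunit of a potassium channel of pericytes, had almost equal E18.5 libraries at 40.8, 40.3 and 40.6 CPM, against 27.8, 24.1 and 24.9 at E15.5 and 15.3, 15.55 and 15.6 at P5. The summed level of the 11 pericyte genes was 579 to 643 CPM at E18.5 and 1351 to 1489 CPM at P5. The highest mean fell at P5 in 5 of these 11 genes, at E18.5 in 4 and at P8 in 2, and 3 (27.3%) had every E18.5 library above all others, beside 4.89% of all genes.

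*Atp12a*, the non-gastric proton-potassium pump, was at 2.86, 1.53 and 2.66 CPM in the E15.5 libraries, 5.11, 4.44 and 4.12 at E18.5 and 0.209, 0.103 and 0.115 at P5. It was the single member of 20 measured genes of lung liquid and ion transport. Of these, 12 were highest at P8, beside 26.4% of all genes. *Tmem213*, a small membrane protein, had the largest ratio, 4.48, and the widest spread, with 2.81, 5.82 and 1.30 CPM at E18.5 against 0.484, 0.826 and 0.905 at E15.5. Its exons overlap *Atp6v0a4*, a subunit of the proton pump, on the other strand, which was at 7.51, 8.06 and 2.89 CPM in the same E18.5 libraries. Whether any reads of *Atp6v0a4* entered the value of *Tmem213* was not tested. The inward-rectifying potassium channel gene *Kcnj10* reached 2.67, 1.57 and 2.234 CPM at E18.5, from 1.32, 0.491 and 1.20 CPM at E15.5.

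Of the remaining members, *Scara5*, a scavenger receptor that takes up ferritin, was at 18.6, 19.7 and 18.6 CPM at E15.5, then 32.3, 34.5 and 33.1 at E18.5, 1.99, 2.64 and 2.42 at P5 and 7.53, 7.61 and 2.68 at P8. *B3gnt5*, which begins the lacto-series of glycolipids, was at 37.2, 45.4 and 41.2 CPM in the E15.5 libraries, 76.3, 49.5 and 73.5 at E18.5 and 12.7, 15.1 and 16.03 at P5. *Rgs9bp*, an anchor for a regulator of G-protein signalling, was at 2.13, 3.40 and 2.38 CPM at E15.5, then 8.25, 4.65 and 6.19 at E18.5 and 0.546, 0.599 and 0.937 at P5. *Frrs1l*, an assembly factor of AMPA receptors, was at 4.20, 3.68 and 4.43 CPM in the E15.5 libraries, 8.70, 10.2 and 9.76 at E18.5 and 3.05, 3.06 and 3.19 at P5. *Igsf9b*, an adhesion molecule of inhibitory synapses, was at 12.95 ± 1.61 CPM at E18.5, and *Ccdc88c*, which binds Dishevelled in Wnt signalling, at 59.2 ± 8.94 CPM (SD, n = 3).

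The other protein-coding members were *Mctp2*, *Rem2*, *Greb1*, *Chst5*, *Ddit4l*, *Hectd2*, *Pcdh20*, *Pak6*, *Plac1*, *H60b* and *Zan*, with E18.5 means from 2.20 CPM for *Zan* to 12.6 CPM for *Mctp2*. The genes *Gm38345*, *Gm11476*, *4930444F02Rik*, *Gm4890* and *3110053B16Rik* are annotated as non-coding, as a pseudogene or as not yet resolved, and their E18.5 means were 2.38 to 3.58 CPM. *4930444F02Rik* had its lowest mean before the peak, as did *Mctp2*, *Mcidas* and *Mxi1*. The libraries of *4930444F02Rik* were at 0.759, 0.688 and 1.22 CPM at E15.5, then 2.83, 3.46 and 2.36 at E18.5 and 1.58, 2.17 and 1.82 at P8.

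Whether the members returned to their E15.5 level after birth was tested on the contrast of E15.5 and P5. The rule did not use the order of these time-points, although it held both levels under 66.7% of the peak. With edgeR's quasi-likelihood test over 15994 genes (FDR under 0.05 and absolute log2 fold change above 1), 15 of the 57 members were lower at P5 than at E15.5 and 0 were higher. Over all genes tested, 12.2% were called lower and 19.4% higher in this contrast. On the FDR alone, 27 members passed, 24 lower and 3 higher, beside 74.8% of all genes in either direction. At an unadjusted p under 0.05, 27 members were lower and 3 higher, and DESeq2 called 15 lower and 1 higher. No share of all genes is given for these counts, so they are not compared with the whole table. The median log2 fold change was -0.42 for the members and -0.02 for all genes tested, and 42 members did not pass both cutoffs. The rule left little room for rises, since it held P5 under 66.7% of the peak. The median member already stood at 59.8% of its peak at E15.5. By asking for a fall after E18.5, the rule also selected genes that were low at P5. The counts of members higher or lower and their median are therefore not comparable with those of all genes.

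The largest falls were those of *Crh* (log2 fold change -6.21 with standard error 0.39, edgeR FDR = 1.06e-08) and *Adamts18* (log2 fold change -4.88 with standard error 0.17, edgeR FDR = 8.94e-11). *Hif3a* (log2 fold change -3.27 with standard error 0.15, edgeR FDR = 2.49e-09), *Ppp1r3b* (log2 fold change -2.96 with standard error 0.26, edgeR FDR = 2.57e-06) and *Scara5* (log2 fold change -2.92 with standard error 0.32, edgeR FDR = 8.22e-06) also fell. *Stc2* fell by 2.64 on the log2 scale, *Hk2* by 2.11 and *Rgs9bp* by 1.83, with edgeR FDR = 2.51e-06, 2.12e-05 and 7.51e-05. The smallest called falls among members of at least 5 CPM were those of *B3gnt5* (log2 fold change -1.41 with standard error 0.15, edgeR FDR = 3.20e-06) and *Lox* (log2 fold change -1.39 with standard error 0.0873, edgeR FDR = 8.27e-09). The low-level genes *Atp12a*, *Fam19a2*, *Plac1*, *Ascl2* and *H60b* were called lower too, with log2 fold changes from -3.91 to -1.86.

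Other members were near their E15.5 level at P5. *Chd2* differed by 0.05 on the log2 scale (edgeR FDR = 0.537), *Ago2* by -0.06 (edgeR FDR = 0.707), *H1f0* by -0.07 (edgeR FDR = 0.441) and *Crispld2* by -0.05 (edgeR FDR = 0.709). *Egln3* (log2 fold change -0.69 with standard error 0.24, edgeR FDR = 0.0210) and *Mxi1* (log2 fold change 0.32 with standard error 0.0952, edgeR FDR = 0.00757) passed the FDR but not the fold cutoff, in opposite directions. *Ankrd37* (edgeR FDR = 0.0633) and *Car12* (edgeR FDR = 0.625) did not pass. By the libraries themselves, every P5 library was below every E15.5 library for 32 of the 57 members (43.0% of all genes). It was above for 3 members (35.4% of all genes), a direction for which the rule left little room. These counts too are not comparable with those of all genes.

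**Figure D4:**
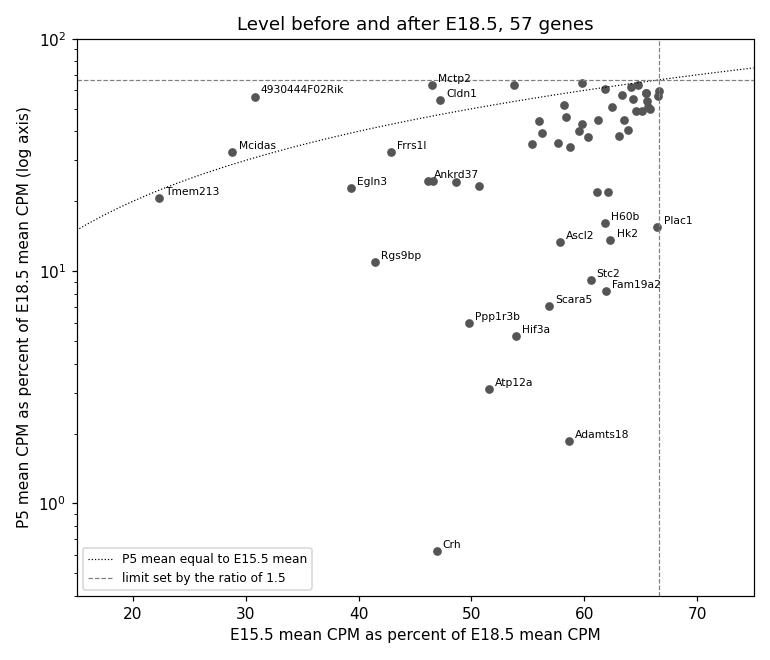
The E15.5 mean (horizontal axis) and the P5 mean (vertical axis, log scale) of each of the 57 genes (points) as percent of its E18.5 mean. Dashed lines mark the limit that the ratio of 1.5 sets on both axes, and the dotted line marks equal E15.5 and P5 means. The E15.5 levels lie between 22.3% and 66.6%, while the P5 levels reach down to 0.627% for *Crh*.

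At P8, 17 members were lower than at E15.5 and 1 was higher (11.4% and 20.8% of all genes tested), and on the FDR alone 33 passed (76.0% of all genes). Here too the rule left little room for rises and selected for low postnatal levels, so the counts are not comparable with those of all genes. The E15.5 libraries are the same as in the contrast above, so these contrasts are not independent. *Crh* (log2 fold change -7.61 with standard error 0.44, edgeR FDR = 5.65e-09), *Hif3a* (log2 fold change -4.03 with standard error 0.16, edgeR FDR = 6.86e-10) and *Lox* (log2 fold change -1.33 with standard error 0.0871, edgeR FDR = 1.24e-08) were again low. *Ankrd37* was called at -1.09 on the log2 scale (edgeR FDR = 0.0177), and this call was lost when E15.5 replicate 2 or 3 or P8 replicate 3 was left out, at -0.96, -0.97 and -1.03. The member that was higher was *4930444F02Rik* (log2 fold change 1.14 with standard error 0.27, edgeR FDR = 0.00180), at 0.99 without E15.5 replicate 2.

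The median absolute log2 fold change between P5 and P8 was 0.28 for the members and 0.18 for all genes tested. With edgeR 0 were called lower and 1 was called higher, beside 0.0875% and 2.66% of all genes tested, and DESeq2 gave the same counts. At an unadjusted p under 0.05, 8 members were lower and 7 higher, with no share of all genes given beside them. On the FDR alone 7 members passed, 4 lower and 3 higher, beside 17.5% of all genes. The called gene was *Scara5* (log2 fold change 1.33 with standard error 0.32, edgeR FDR = 0.0183). Its P8 replicate 3 lay at the P5 level, and the call was lost when any of P5 replicates 1 and 3 and P8 replicates 1 and 2 was left out. *Hif3a* was lower at P8 than at P5 (log2 fold change -0.77 with standard error 0.15, edgeR FDR = 0.00787) and passed the FDR but not the fold cutoff.

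Exon inclusion was available for 3 members through events that the study paired with their genes. These events were selected in the same libraries, so they are described without a test. PSI is the percent of transcripts that include the exon. Of the 328992 events with sufficient coverage 0.499% had E15.5 and P5 libraries that did not overlap and means at least 10 points apart. That background holds events of every type, 96791 intron events among them, while the 3 exons had been selected by the study. The shares given here therefore do not measure how rare the shifts of these exons are. In *Chd2* the exon was included at 83.7, 100 and 90 PSI at E15.5, 75, 48.8 and 69.2 at E18.5, 89.3, 86.05 and 67.9 at P5 and 51.7, 77.1 and 63.4 at P8. The E15.5 and E18.5 libraries did not overlap, which together with a difference of 10 points held for 0.242% of all these events. The E18.5 libraries overlapped those of P5 and P8, and the P8 mean of 64.1 ± 12.7 was as low as the E18.5 mean of 64.3 ± 13.8 (SD, n = 3), although the gene was highest at E18.5 and lowest at P8.

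In *Col25a1* the exon was at 76.4, 100 and 94.1 PSI at E15.5 and 96.4, 73.6 and 96.9 at E18.5, and at 45.5, 43.2 and 30.2 at P5 and 42.7, 30.9 and 41.99 at P8. The mean was 88.97 ± 13.3 at E18.5 and 39.6 ± 8.22 at P5 (SD, n = 3), and these libraries did not overlap. In *Ccdc88c* the exon went the other way, at 0, 0 and 2.44 PSI at E15.5, 5.75, 1.78 and 3.57 at E18.5, 15.6, 31.03 and 21.2 at P5 and 31.3, 26.3 and 41.5 at P8. In both of these exons the prenatal libraries lay apart from the postnatal ones, while E15.5 and E18.5 overlapped, and 19 to 92 reads lay behind each value over the 3 events.

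**Figure D5:**
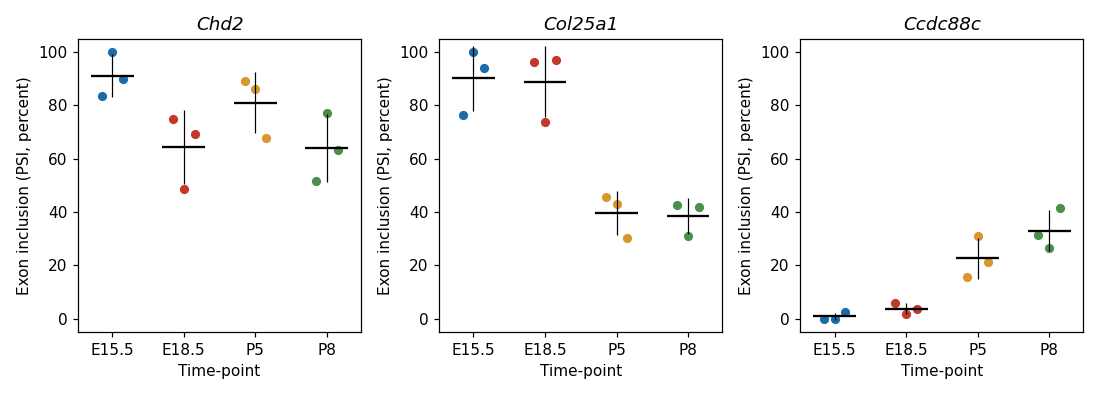
Exon inclusion (PSI in percent, vertical axis) of the events in *Chd2*, *Col25a1* and *Ccdc88c* at the 4 time-points. Points are libraries, horizontal bars means and vertical bars SD (n = 3). The E18.5 points of *Chd2* lie under its E15.5 points, and the *Col25a1* points are lower and the *Ccdc88c* points higher at P5 and P8 than before birth.

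The E18.5 libraries differed among themselves. Of the 57 members, 38 were highest in E18.5 replicate 1, 16 in replicate 2 and 3 in replicate 3, whereas of the 13185 genes with an E18.5 mean of at least 2 CPM 29.0%, 31.2% and 39.8% were highest in these libraries. Replicate 1 was at least 1.5 times the mean of replicates 2 and 3 in 6 members (10.5%), namely *Ankrd37*, *Egln3*, *Ppp1r3g*, *Stc2*, *Slc16a6* and *Rgs9bp*, and in 1.20% of those genes. In the hypoxia-inducible list 18 of 23 genes were highest in replicate 1. Without that library 37 of the 57 genes still met the rule, and *H1f0*, *Ago2*, *Hk2*, *Mxi1*, *B3gnt5*, *Stc2*, *Zfp516*, *Ppp1r3g* and *Car12* were among those that did not. The median coefficient of variation among the E18.5 libraries was 14.5% for the members and 7.48% for all genes of that level.

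Of the 51 gene lists searched, 39 held no member. Members were 0.353% of the whole table, so an empty list says little about its genes. The empty lists include 25 of the 28 lists of cell-type markers, with 363 measured genes between them. In all, 17 members were in any list.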

How the data were processed

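Whole-lung RNA of 12 C57BL/6 samples was sequenced after a TruSeq RNA preparation. The authors aligned the reads to mm10 with TopHat2 2.1.1 and Bowtie2 2.3.4 and the Gencode vM14 annotation, and counted them per gene with HTSeq 0.10.0. They deposited counts of 16152 genes without normalization, CPM values of 51825 genes (count over mapped reads) and, in percent, PSI values of 661162 splicing events. The counts held only rows that name a gene, and 16136 IDs were matched to symbols. All CPM values were whole reads within a tolerance of 0.01 read, and between 48436716 and 62279460 reads were mapped per library.

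The members and the gene lists were chosen with earlier results of these data known. Members were found from the CPM. The counts were tested with edgeR 4.0.16 (R 4.3.3): TMM scaling, quasi-likelihood fit of all 12 libraries, genes reaching 1 CPM in 3 or more libraries, and Benjamini-Hochberg FDR. The test was checked on simulated counts. Splicing events needed a PSI and a coverage score above the lowest class in every library and fewer than 3 libraries under 10 reads. Loci came from GENCODE M21 and promoters from RefSeq (GRCm38.p6), matched by symbol. Members were named for their level, ratio, list, change from E15.5 to P5 or P5 to P8, place at a threshold or splicing event, and other named genes were chosen after their values were seen. Alternatives included DESeq2 1.42.0, other scalings and filters, a replicate block and leaving out each library.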

Additional observations from a re-analysis of the deposited data

How the results depend on the processing

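The set of genes depended most on the ratio and on single libraries. A ratio of 2 left 10 genes, a limit of 1 CPM gave 62 and of 5 CPM 40, and TMM-scaled CPM gave 52, of which 48 were shared with the 57. With each library left out in turn the rule gave 42 to 89 genes: 42 without E18.5 replicate 1 (37 shared), 86 without E15.5 replicate 3 (54 shared) and 89 without E18.5 replicate 3 (55 shared). The count of members called from E15.5 to P5 was 15 to 17 and from E15.5 to P8 16 to 19 with libraries left out, and from P5 to P8 it was 0 to 2. On the FDR alone the counts were 27, 33 and 7. With only the P5 and P8 libraries fitted, 0 of 45 members tested were called. The other alternatives to these counts, including DESeq2, other filters and the whole reads recovered from the CPM (chosen after seeing the data), stayed within 1.5 times. Scaling by library size only moved the median log2 fold change of all genes from E15.5 to P5 to -0.10. Of 713 values of single called genes under the alternatives, 704 kept their direction and their side of both cutoffs, 9 of *Scara5*, *Ankrd37* and *4930444F02Rik* missed a cutoff and 0 changed sign. The share of promoter windows with ACGTG was 25.2% when only genes of at least 2 CPM at E18.5 were the background. With at least 20 reads in every library, 2 of the 3 splicing events remained. With the replicate number as a block, 15, 18 and 1 members were called from E15.5 to P5, E15.5 to P8 and P5 to P8. The numbers did not pair the samples, since correlations of same-numbered libraries ran from -0.34 to 0.30 and 4 of 12 libraries correlated best with their own number.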

Other observations

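Promoters of the members were somewhat poorer in CpG than others. The median ratio of observed to expected CpG was 0.601 over the 46 windows of members and 0.717 over all 15155 windows, and 50% of the members' windows reached a ratio of 0.6, beside 63.3% of all windows. The TATA box letters TATAAA were in 2 of the 46 windows (4.35%) and in 7.91% of all windows. The short site of the glucocorticoid receptor, AGAACA, was in 7 windows (15.2%) and in 12.95% of all windows. Of the other letters searched on both strands, CACGTG (which contains ACGTG) was in 1 window, GTTGCC in 3, CAGCTG in 8, TGATAA in 2 and GTAAACA in 1, and TGACGTCA and the CArG box were in 0, beside 9.25%, 12.8%, 15.8%, 4.69%, 2.78%, 2.79% and 1.34% of all windows. The members had a median exon length of 5211 bases and a median span of 35.1 kb, beside 4463 bases and 23.7 kb for the genes with an E18.5 mean of at least 2 CPM. Only *Hectd2* and *Gm38345* lay within 1 Mb of each other, at a distance of 812 kb. Beside the glycogen list, the list of Notch signalling genes, which held no member, was the only list with its summed level highest in every E18.5 library, at 1540 to 1738 CPM, beside 1486 to 1519 CPM at E15.5 and 1091 to 1150 CPM at P5. The mean PSI of 96791 retained-intron events was 1.15 to 1.26 in the E18.5 libraries and 1.35 to 1.46 in the E15.5 libraries, and the ranges of 1.21 to 1.42 at P5 and 1.14 to 1.4997 at P8 overlapped that of E18.5.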
